A study of Homo sapiens with 8 samples.

Results

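Histone H2B is a core protein of the nucleosome, where it pairs with H2A, and the human genome holds many near-identical genes for it. The genes described here were 9 of these, H2BC4, H2BC5, H2BC6, H2BC7, H2BC8, H2BC9, H2BC11, H2BC12 and H2BC21, listed by name with earlier results of these data known. The array's annotation gave them 12 of its 47231 probes, and 9 of the 20046 genes named on it. H2BC5 had 3 probes, H2BC12 had 2 and the others 1 each. Another 11 H2B genes on the array are described after them.

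RNA came from DOHH2, a human cell line established from a germinal centre B-cell lymphoma, treated either with BAY 1238097 or with DMSO, its vehicle. BAY 1238097 blocks the bromodomains of BET proteins, which bind acetylated histone tails and help RNA polymerase II to elongate. Each treatment had 4 Illumina bead arrays, 1 each at 4, 8, 12 and 24 h, so a single time held 1 array a group and had no test of its own. No dose could be read from the labels, and nothing there says that the times came from separate cultures, so p-values measure the spread over the 4 times of what may be 1 culture. In RNA from whole cultures, fewer cells of a type and less RNA per cell cannot be told apart.

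Most H2B genes lie in histone clusters, 8 of the 9 on chromosome 6 and H2BC21 on chromosome 1. They are transcribed mainly in S phase, when new nucleosomes are needed, and their usual transcripts end in a stem-loop without a poly(A) tail. Several H2B genes also make polyadenylated transcripts, and the labelling kit named in the labels primes on poly(A). Stem-loop and polyadenylated transcripts were therefore not measured alike, and a change in the number of transcripts cannot be told apart from a change in how they end.

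A promoter element known from H2B genes is the octamer, bound by the POU factors OCT1 and OCT2, and some of these promoters are shown here beside genes that rose and 1 that did not pass the test. The 250 bases before the annotated start of each gene (RefSeq, GRCh38.p14, where all 9 matched) were searched on both strands for ATTTGCAT, for CCAAT and for TATAAA, each counted on its own, also where matches could share bases. The octamer was found in 8 of the 9, against 1.66% of 27305 gene promoters of that length. It was found in 6 of 12 other H2B genes. CCAAT was found in 9 of the 9 (33% of all) and TATAAA in 7 of the 9 (11.1% of all), and canonical H2A genes held these in 16 of 16 and 12 of 16. The first base of the octamer lay 46 to 49 bases before the start in H2BC8, H2BC9, H2BC11, H2BC12 and H2BC21, and 108 to 123 bases before it in H2BC4, H2BC6 and H2BC7. The 150 bases before the start are printed 5′ to 3′ for 6 genes, with the octamer in capitals: the 3 with the largest changes below, a pair whose differences shrank over the course, and H2BC9, which did not pass the test. They are chr1:149886683-149886832 (H2BC21, minus strand), chr6:26157971-26158120 (H2BC5, plus), chr6:27132796-27132945 (H2BC11, minus), chr6:26216689-26216838 (H2BC8, minus), chr6:26123927-26124076 (H2BC4, minus) and chr6:26251464-26251613 (H2BC9, plus).
H2BC21: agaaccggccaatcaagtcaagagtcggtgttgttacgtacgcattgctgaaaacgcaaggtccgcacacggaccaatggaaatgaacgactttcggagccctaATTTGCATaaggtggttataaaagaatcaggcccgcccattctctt
H2BC5: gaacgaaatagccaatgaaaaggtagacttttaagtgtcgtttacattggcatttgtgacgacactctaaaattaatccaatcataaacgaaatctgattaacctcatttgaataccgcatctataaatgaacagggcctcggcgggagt
H2BC11: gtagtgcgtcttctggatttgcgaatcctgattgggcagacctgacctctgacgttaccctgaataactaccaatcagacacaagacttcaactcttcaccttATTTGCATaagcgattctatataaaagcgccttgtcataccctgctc
H2BC8: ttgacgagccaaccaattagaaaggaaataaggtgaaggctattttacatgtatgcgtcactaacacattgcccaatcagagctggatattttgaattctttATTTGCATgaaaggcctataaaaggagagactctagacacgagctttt
H2BC4: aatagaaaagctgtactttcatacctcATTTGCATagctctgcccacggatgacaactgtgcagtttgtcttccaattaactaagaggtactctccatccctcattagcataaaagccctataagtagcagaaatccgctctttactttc
H2BC9: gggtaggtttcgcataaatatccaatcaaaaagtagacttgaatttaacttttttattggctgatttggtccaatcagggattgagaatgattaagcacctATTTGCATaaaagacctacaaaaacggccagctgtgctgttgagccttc

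The H2BC5 window holds no such 8 letters on either strand, and the H2BC9 window holds them at 49 bases. Among canonical H2A genes, many of which share a promoter region with an H2B gene, 11 of 16 held the octamer, and of canonical H3 and H4 genes 1 of 24 did. A match is a run of letters and not a measured binding site.

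Values are intensities as deposited, on a linear scale and with no background removed. The background of each array was read from 437 probes of olfactory receptor genes, and a probe counted as above background where under 5% of these were as bright. That limit ran from 92.9 to 125 over the arrays, and the brightest probe on any array reached 16600. Arrays differed in overall brightness, with mean intensities of 262 to 419 and the 4 h arrays dimmest, and 17438 to 19122 probes above background. Log2 changes are BAY 1238097 minus DMSO after quantile normalization, averaged over the 4 times with their standard error, and adjusted p-values are from limma over the 18640 probes tested. In that fit 12.7% of all tested probes were higher and 12.8% lower with BAY 1238097, and under median scaling 1163 were higher and 3752 lower. Over the probes tested, the median log2 intensity before normalization, BAY 1238097 minus DMSO, was -0.013, -0.27, -0.25 and -0.32 at 4, 8, 12 and 24 h, and the part of this brightness gap in the results was not tested. The B-cell receptor chains CD79A and CD79B were above background on all 8 arrays, whereas the T-cell genes CD3D, CD3E and CD3G were above it on none. CD2, also a T-cell gene, was above it on 2 DMSO arrays and 0 BAY 1238097 arrays. By their brightest probes, the B-cell genes MS4A1 and CD22 were above it on 4 DMSO arrays each and on 2 and 1 BAY 1238097 arrays. The myeloid genes CD14 and LYZ were above it on 2 and 0 DMSO arrays and on 2 BAY 1238097 arrays each. EPCAM, an epithelial gene, was above it on 2 DMSO arrays and 1 BAY 1238097 array. CSF1R, KRT8, HBA1 and HBB, of myeloid, epithelial and erythroid cells, were above it on none. PAX5 and BCL6, transcription factors of B cells and germinal centres, were not above background on any array. MME, listed with BCL6 as a germinal centre marker, was above it on all 8 arrays with its brightest probe.

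**Figure D1:**
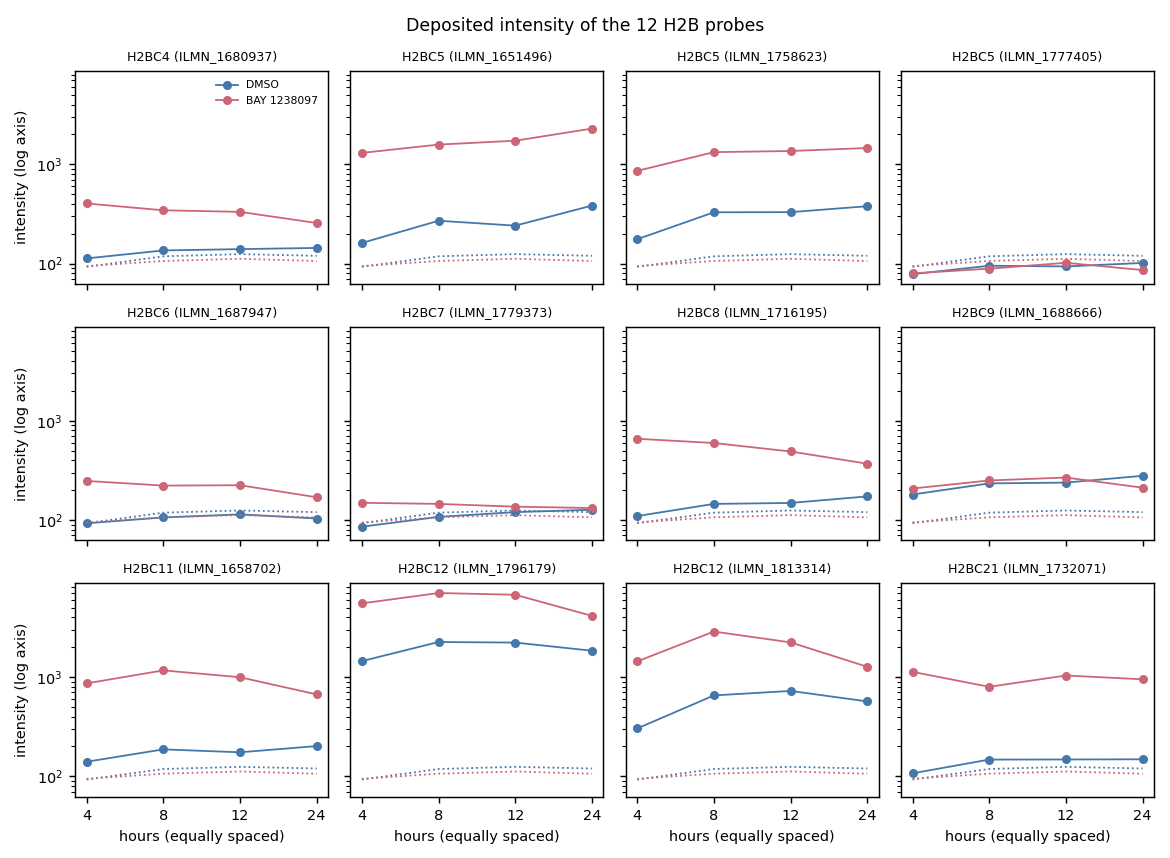
Deposited intensity (log axis) of each of the 12 H2B probes at 4, 8, 12 and 24 h, 1 array per point, with DMSO in blue and BAY 1238097 in red; dotted lines mark the background limit of the same arrays. The lines stand apart in 9 panels and lie together for H2BC9 and for the H2BC5 probe ILMN_1777405, while for H2BC7 they meet by 24 h.

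Of the 9 H2B probes above background on all 8 arrays, 8 were higher with BAY 1238097 and 0 lower at an adjusted p of 0.05. Among all 18640 probes tested, under the looser filter of at least 4 of the 8 arrays, 12.7% were higher, 12.8% lower and 25.5% either. Of these 18640, 0.376% were called with a log2 change of at least 1. Fitted on their own, the 14529 probes above background on all 8 arrays gave 2156 higher and 2117 lower. H2BC21 and H2BC5 showed the largest rises of all 18640 probes tested. The probes of H2BC6 and H2BC7 passed the brightness filter through their BAY 1238097 arrays and are given apart. All 4 treated arrays exceeded all 4 vehicle arrays, after normalization, for the 8 probes that rose, against 8.87% of all probes tested. The reverse order held for no H2B probe and for 8.96% of all.

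H2BC21, the chromosome 1 member and a gene often reported as raised by BET inhibitors, had DMSO intensities of 107, 148, 148 and 149 at 4, 8, 12 and 24 h. With BAY 1238097 they were 1128, 798, 1037 and 949. Vehicle values thus lay just over the background limit and treated values many times above it, at every time. The log2 change was 3.04 ± 0.15 (SE, 4 times), 8.21-fold (adjusted p = 0.000262).

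H2BC5, in the larger group of histone genes on chromosome 6, was read by a pair of probes for the same transcript record. The first (ILMN_1651496) had DMSO intensities of 162, 271, 242 and 384, and 1304, 1581, 1730 and 2291 with BAY 1238097. The second (ILMN_1758623) had 176, 329, 330.3 and 379 in DMSO and 859.9, 1327, 1363 and 1460.5 with BAY 1238097. Before normalization both probes were lowest at 4 h and highest at 24 h in either treatment, and the treated arrays stood apart at all 4 times. Their log2 changes were 3.01 ± 0.06 and 2.36 ± 0.06, 8.03-fold and 5.12-fold (adjusted p = 2.69e-05 for each). The third H2BC5 probe, ILMN_1777405, is annotated to another transcript record of the gene. It was not above background on any array, with intensities of 78.5 to 102 in DMSO and 79.9 to 102 with BAY 1238097, and was not tested.

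H2BC11 and H2BC12 lie in a more distant group on chromosome 6, with H2AC11 between them. H2BC11 had DMSO intensities of 140.4, 187, 175 and 202, against 863, 1167, 996 and 669 with BAY 1238097. It rose by 2.59 ± 0.13 on the log2 scale, 6.02-fold (adjusted p = 0.000321). H2BC12 stood well above the background limit in vehicle on both of its probes. Its brighter probe (ILMN_1796179) read 1448, 2253, 2224 and 1841 in DMSO and 5518, 7014, 6737 and 4129 with BAY 1238097, all below the top of the scale. Its dimmer probe (ILMN_1813314) read 304, 653.5, 725 and 569 in DMSO and 1438, 2872, 2233 and 1269 with BAY 1238097. The treated intensities of both were lowest at 24 h. After normalization the treated values of the brighter probe were highest at 4 h and those of the dimmer probe at 8 h. The log2 changes were 1.83 ± 0.07 and 2.08 ± 0.13, 3.55-fold and 4.22-fold (adjusted p = 0.000146 and 0.000795).

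H2BC8 and H2BC4, both on chromosome 6 in the same group as H2BC5, were close to the background limit in vehicle. H2BC8 had DMSO intensities of 109.7, 145, 149 and 173, and 658, 596, 490.0 and 369 with BAY 1238097. It rose by 2.05 ± 0.22, 4.15-fold (adjusted p = 0.00236). H2BC4 had 113, 136, 140.1 and 144 in DMSO, and 404, 345, 332 and 257 with BAY 1238097. Its rise was 1.49 ± 0.16, 2.81-fold (adjusted p = 0.00236). In both genes the treated values were highest at 4 h and lower at each later time, also after normalization. The increase in vehicle intensity went with brighter arrays after 4 h, and the normalized vehicle slopes were 0.0069 for H2BC8 and -0.096 for H2BC4 per doubling of time, neither past the threshold.

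H2BC6 was not above background on any DMSO array, with intensities of 92.8, 106, 114 and 104, and was above it on all 4 BAY 1238097 arrays at 248, 222, 224 and 169.6. It is therefore given as a bound, at least 2.16-fold higher, with no test. The bound is taken against the lowest normalized signal above background on each array, or the probe's own where higher. H2BC7 was above background on 1 of 4 DMSO arrays, that at 24 h. It too passed the brightness filter only through its treated arrays. Its intensities were 85.7, 108, 120.1 and 127 in DMSO and 149, 145, 136 and 132 with BAY 1238097. The groups came together over the course, and its log2 change of 0.57 ± 0.15 is given with no test for that reason. It counted as called in the main fit. That call was lost with the 8 h pair of arrays left out (0.56), with the 12 h pair left out (0.66) and with no brightness filter.

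H2BC9 was the tested member that did not pass. It was above background on all 8 arrays, with DMSO intensities of 181, 234, 238 and 279 and BAY 1238097 intensities of 208, 250.2, 268 and 212. The groups overlapped, and the normalized difference was 0.23, 0.37 and 0.39 at 4, 8 and 12 h and -0.073 at 24 h. The log2 change was 0.23 ± 0.09 (adjusted p = 0.106), so a change of this probe was not detectable over the 4 times. It passed without the 24 h arrays (0.33, adjusted p = 0.0293) and with array weights (0.29, adjusted p = 0.0199).

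**Figure D2:**
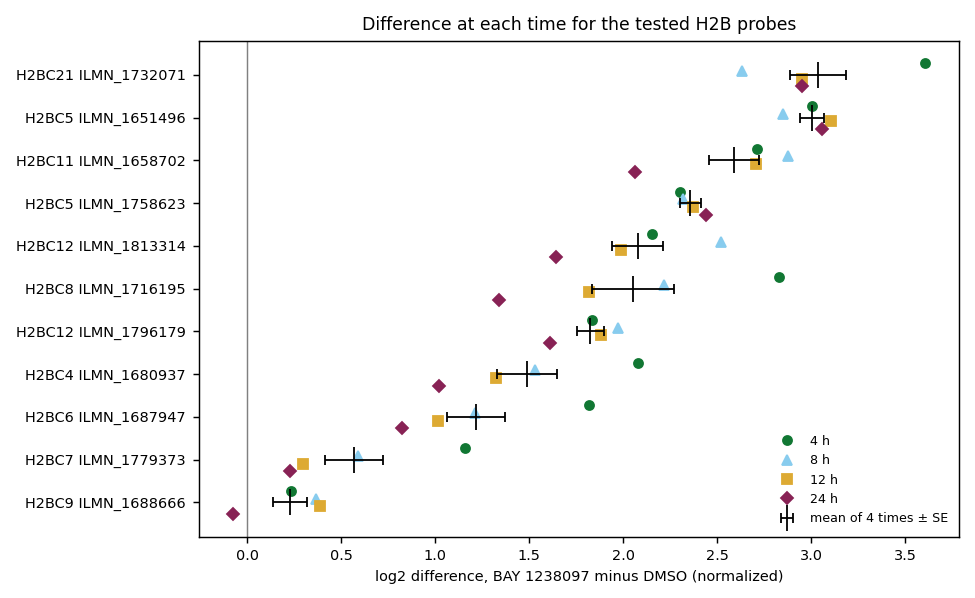
Normalized log2 difference between BAY 1238097 and DMSO (horizontal axis) at each time for the 11 tested H2B probes, with the mean of the 4 times and its standard error as black bars. The 4 h point is the highest in H2BC21, H2BC8, H2BC4, H2BC6 and H2BC7, and the H2BC5 points lie close together.

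The size of the rise differed with the treatment of background, and most of these probes were dim in vehicle. The ratios here both subtract background and leave out normalization, and the parts of these steps were not separated. After subtracting each array's median olfactory receptor signal, without normalization, H2BC21 stood 24.8, 51.1, 46.0 and 48.2 above background in DMSO and 1045, 706, 941 and 857 with BAY 1238097. The ratios were then 42.2, 13.8, 20.5 and 17.8. The same ratio ran from 3.82 to 21.2 over the times for H2BC8, from 5.69 to 13.5 for H2BC11 and from 3.79 to 10.5 for H2BC4. For the bright H2BC12 probe it ran from 2.32 to 3.98. Ratios of dim probes rest on a small vehicle signal, and a few units of background at 4 h move them.

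Where a gene had several tested probes, these agreed in direction at every time and differed in size. The first H2BC5 probe exceeded the second by 0.70, 0.53, 0.74 and 0.62 in log2 difference at 4, 8, 12 and 24 h, a mean gap of 0.65 with an SD of 0.091. The dimmer H2BC12 probe exceeded the brighter by 0.32, 0.55, 0.10 and 0.031, a mean gap of 0.25 with an SD of 0.23. The H2BC5 gap was thus steady over the times, and that of H2BC12 was about as large as its own spread. Probes can bind near-identical transcripts of other H2B genes, and their sequences were not used here, so signal cannot be assigned to a single gene with certainty.

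**Figure D3:**
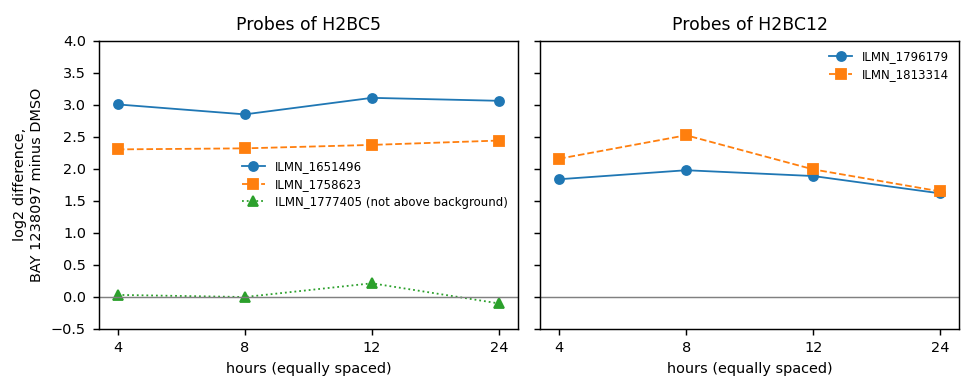
Normalized log2 difference between BAY 1238097 and DMSO at 4, 8, 12 and 24 h for the 3 probes of H2BC5 and the 2 of H2BC12. The pair of H2BC5 probes for the same transcript record runs parallel, 0.53 to 0.74 apart, and the third stays near 0 at background.

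The second comparison asked whether the difference between treatments changed over the course. A negative coefficient here means a difference that shrank per doubling of time, and 7 of the 9 probes above background on all 8 arrays had one. It passed for 2 of them, both shrinking, against 3.06% of all tested probes in either direction, 1.43% shrinking and 1.63% growing. H2BC8 had log2 differences of 2.83, 2.22, 1.82 and 1.34 at 4, 8, 12 and 24 h, a coefficient of -0.58 ± 0.06 (adjusted p = 0.0249). H2BC4 had 2.08, 1.53, 1.33 and 1.02, a coefficient of -0.41 ± 0.06 (adjusted p = 0.0290). H2BC6 and H2BC7, tested through their treated arrays, had normalized differences of 1.82, 1.21, 1.01 and 0.83 and of 1.16, 0.59, 0.30 and 0.23, with vehicle values at or near background, so these sizes are limited by it.

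In the remaining members no change of the difference passed. Both H2BC5 probes varied little, between 2.85 and 3.11 and between 2.30 and 2.44, with coefficients of 0.042 and 0.055 that did not pass. H2BC21 was highest at 4 h (3.61) and between 2.64 and 2.95 afterwards. H2BC11 had 2.71, 2.88 and 2.70 up to 12 h and 2.06 at 24 h (coefficient -0.25, adjusted p = 0.213). Over all 11 tested probes, the largest difference fell at 4 h for 5, at 8 h for 3, at 12 h for 2 and at 24 h for 1. Those at 4 h include H2BC6 and H2BC7, with vehicle values at or near background. The same count over all probes of the array was not made. With H2BC6 counted, 3 of the 11 tested probes shrank past the threshold. That count was 1 without the 12 h arrays and 5 without those at 24 h, and 0 with array weights, where 6 had an unadjusted p under 0.05.

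Within vehicle, no H2B probe passed a slope on log2 hours, with slopes of -0.21 to 0.095 per doubling, 1 of 11 at an unadjusted p under 0.05 in limma and 4.46% of all tested probes past the threshold (2.01% rising and 2.45% falling). Within BAY 1238097, 4 of the 9 probes above background on all arrays declined, against 3.02% of all tested probes. Of all tested probes, 4.13% rose and 7.14% passed the threshold in either direction. The decliners were H2BC8 (-0.57 ± 0.07), H2BC4 (-0.50 ± 0.07), H2BC11 (-0.37 ± 0.07) and the brighter H2BC12 probe (-0.30 ± 0.06). H2BC6 and H2BC7, which passed the brightness filter through their treated arrays, had slopes of -0.45 and -0.28, given with no test for that reason. With H2BC6 and H2BC7 counted, 6 of the 11 tested probes declined past the threshold. The H2BC5 probes had slopes of 0.14 and 0.099 there, and neither passed. Without the 4 h arrays the slopes were -0.31 for H2BC4, -0.28 for H2BC6, -0.11 for H2BC7 and -0.47 for H2BC12, and without the 24 h arrays -0.16 for H2BC12 and -0.47 for H2BC7. Under median scaling they were -0.31 for H2BC4, -0.27 for H2BC6, -0.14 for H2BC7 and -0.22 for H2BC11. The count of declining probes was 0 without the 4 h arrays, without the 8 h arrays, under median scaling and with array weights, and 3 without the 12 h arrays.

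The other 11 H2B genes on the array were mostly below detection. In H2BC1, H2BC3, H2BC10, H2BC13, H2BC26, H2BW1 and the pseudogene H2BW4P no array was above background. H2BC14 was above it on 1 DMSO and 2 BAY 1238097 arrays, H2BC15 on 0 and 1, and H2BC17 on 0 and 3. H2BC18, which had 3 probes, passed the brightness filter with 1 of them, at 84.0, 112, 116 and 133 in DMSO and 112, 146, 153 and 159.5 with BAY 1238097. That probe was above background on 1 DMSO array and all 4 treated ones, which let it through the filter, and its log2 change of 0.53 is given with no test for that reason. The others of H2BC18, annotated to another transcript record, were at background. For the genes at background no change was detectable at this brightness.

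Genes next to the 9 members in the RefSeq order of GRCh38.p14 were mostly histones as well. H2AC6, beside H2BC4, rose by 2.64 ± 0.10, and H2AC20, beside H2BC21, by 2.13 ± 0.07. H2AC11, between H2BC11 and H2BC12, had a log2 change of 1.48 with 2 of 4 DMSO arrays above background. H2AC8, beside H2BC8, was above background on 0 of 4 DMSO arrays and all 4 treated ones, at least 1.64-fold higher. H4C5, between H2BC7 and H2BC8, rose by 0.40 ± 0.09. H3C7, on one side of H2BC9, rose by 0.86 ± 0.07, and H3C8, on the other, had 0.42 with 1 of 4 DMSO arrays above background. H4C9, on the other side of H2BC12, had a log2 change of 0.091 that did not pass (adjusted p = 0.390). Among 15 tested non-histone genes around the clusters, from a list of 26, 1 rose, the zinc finger gene ZNF322 beside H2BC11 (0.56 ± 0.07), and 3 fell, the butyrophilins BTN3A1, BTN3A2 and BTN3A3 (-0.33, -0.42 and -0.61). Their median was -0.019, against 0.0080 for all probes tested.

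By 1 probe per gene, 7 of the 9 H2B genes were above background on all 8 arrays, and of these 6 rose and 0 fell. Their median log2 change was 2.05, with medians of 2.71, 2.22, 1.88 and 1.61 at 4, 8, 12 and 24 h, against 0.0080 for all probes tested. Of the 4 canonical H2A genes above background on all arrays, the partners of H2B, 4 rose (median 2.60), H2AC18 (2.90 ± 0.10), H2AC19 (2.56 ± 0.07) and the neighbours H2AC6 and H2AC20, of which H2AC18 and H2AC19 are near-identical copies. Of 10 such H3 and H4 genes, 9 rose and 0 fell (median 0.54), with H4C14 and H4C8 at 1.65 each and H4C15 at 0.9957. Another 4 H2A genes and 4 H3 genes, H3C10 (1.21) among them, were called higher but were not above background on all DMSO arrays. Linker histones H1-10 (1.76 ± 0.06) and H1-2 (1.75 ± 0.22) rose and H1-3 did not pass. Of 10 replacement histone genes, which are expressed outside S phase, 4 rose, H2AJ (2.09 ± 0.08), H3-3B (0.79), H3-5 (0.60) and H2AX (0.36), and 0 fell. In none of the tested H2A, H3, H4 and H1 genes did the difference change with time past the threshold. Whether the H2B genes differ from these was not tested.

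**Figure D4:**
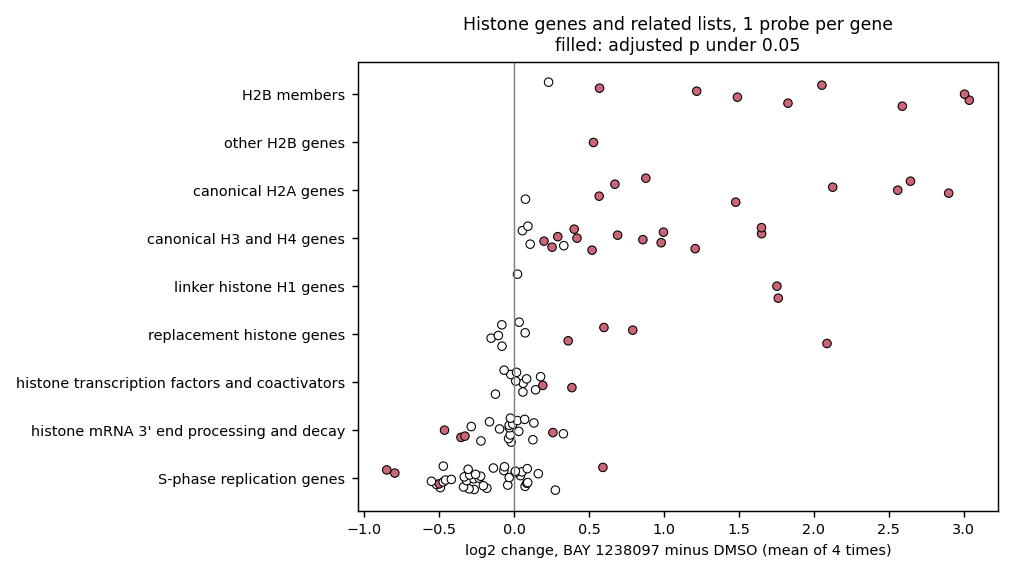
Log2 change of BAY 1238097 against DMSO, averaged over 4 times, for each tested gene of the histone families and related lists (1 probe per gene, the brightest); filled points passed an adjusted p of 0.05. Filled points include H2BC6, H2BC7, H2BC18, 4 H2A genes and 4 H3 genes that were not above background on all DMSO arrays. The H2B members reach from 0.23 to 3.04, the canonical H2A genes from 0.075 to 2.90, and the lists of regulators and S-phase genes lie around 0.

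Genes that act on histone genes and transcripts are given beside the shares of all probes, 12.7% higher and 12.8% lower. Of 12 tested transcription factors and coactivators of histone genes, 2 rose, HINFP, which binds H4 promoters (0.38 ± 0.06, and 0.34 and 0.016 on its other probes), and NFYA, a subunit of the CCAAT-binding factor (0.19 ± 0.06). POU2AF1, the B-cell coactivator of octamer-binding factors, had 0.18 (adjusted p = 0.522) and a difference of 0.92 at 24 h. Of 21 genes of histone mRNA 3′ end processing and decay, 1 rose and 3 fell, LSM10, a part of the U7 particle that cuts histone transcripts (-0.47 ± 0.05), and the cleavage factors CSTF1 (-0.36) and CSTF2 (-0.33). Another CSTF1 probe had 0.013 (adjusted p = 0.894). CSTF3 had 0.33 on its brightest probe (adjusted p = 0.136), while 2 others fell, by 0.26 and 0.24 on the log2 scale, so its probes disagree. The riser was ERI1, an exonuclease that trims the histone stem-loop, at 0.26 on its brightest probe (adjusted p = 0.0485) and at 0.0036 on another (adjusted p = 0.977). Of 21 genes for H2B chaperones and ubiquitination, 3 rose, the ubiquitin pathway genes WAC (0.50 ± 0.06) and UBE2A (0.49 ± 0.08) and the PAF1 complex gene CTR9 (0.28 ± 0.06), and 1 fell, the histone chaperone NASP (-0.63 ± 0.07). Other probes of WAC had 0.33 and 0.17, and another of CTR9 0.14 (adjusted p = 0.120). USP49, a deubiquitinase of H2B, had 0.57 (adjusted p = 0.0653), with differences of -0.049, 0.50, 0.59 and 1.23 that grew by 0.48 ± 0.06 per doubling of time (adjusted p = 0.0269). The shares called in these 3 lists were near or below those of all probes.

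Since H2B is transcribed with DNA replication, genes of S phase were set beside it. Of 39 tested, 1 rose and 3 fell over the 4 times, with a median log2 change of -0.23, both counts below the shares of all probes. The riser was the ribonucleotide reductase subunit RRM2 (0.59 ± 0.14), and GINS3 (-0.50 ± 0.13), POLE2 (-0.80 ± 0.20) and RFC3 (-0.85 ± 0.17), parts of the replication machinery, fell. Another RFC3 probe had 0.36 (adjusted p = 0.262). The list's medians were 0.13, -0.026, -0.27 and -0.74 at 4, 8, 12 and 24 h, and in 17 of the 39 the difference dropped with time past the threshold, among them the helicase subunit MCM2 (-0.48 per doubling, adjusted p = 0.0261). Relative to vehicle, the S-phase list and the H2B genes H2BC4 and H2BC8 shifted down over the course. H2BC4 and H2BC8 were still higher by 1.02 and 1.34 at 24 h. For the other H2B probes above background on all arrays no such change passed. The part of S phase in the H2B values was not tested.

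The 5 non-histone genes most like the H2B genes were taken by Pearson correlation, over the 8 arrays, with the mean standardised profile of the 9 members, among 10393 genes. They were CEMIP2 (r = 0.991), STX5 (0.9903), SERTAD1 (0.987), WDR47 (0.986) and PPP1R13B (0.986). The arrays fall into 2 treatment groups, so these values mostly restate the gap between treatments, which in the members' profile was larger at 4 h than later, and no p is given. SERTAD1, a regulator of E2F and CDK4, rose by 1.20 ± 0.12, with differences of 1.69, 1.11, 0.98 and 1.04 over the times. PPP1R13B, a p53-binding protein, rose by 1.16, and STX5, a Golgi syntaxin, by 0.41, while CEMIP2 and WDR47 were above background on 0 of 4 DMSO arrays.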

How the data were processed

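The authors deposited 1 linear intensity per probe and array, neither normalized nor background-subtracted as the values show, and a table of log2 values equal within 0.00126 to quantile-normalized log2 intensities. Per the labels' protocols, RNA was labelled with an Ambion Illumina kit; how the scans were read out is not stated there. The planned filter allowed for detection p-values; without them, olfactory receptor probes gave the background, and probes above it on at least 4 of the 8 arrays were tested.

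Log2 intensities were quantile normalized and fitted per probe with limma 3.58.1 in R 4.3.3 (lmFit, eBayes): treatment with the time point as a factor, treatment by centred log2 hours, and slopes on log2 hours per group. P-values were Benjamini-Hochberg adjusted over all tested probes, with a threshold of 0.05. The arrays of a time were treated as pairs, since the labels give each time to both treatments; their deviations from the group means correlated with r = 0.60, 0.40, 0.67 and 0.48 at 4, 8, 12 and 24 h. The best correlation with another time was 0.18, 0.18, 0.52 and 0.52, so the 24 h arrays deviated as much with those of another time. Within a group no pair of arrays was a duplicate (lowest SD of their log2 difference 0.113). The steps were tested on simulated data. Figures were drawn with matplotlib 3.10.9 in Python 3.11.15.

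The members, lists, tests and cell type markers were chosen with earlier results of these data known. Named were every member probe, every other H2B gene, up to 4 genes with the largest absolute change per list, and the 5 non-histone genes most like the members; other genes named for calls of 5 or fewer or as neighbours were chosen after their values were seen. Of the probes, 30113 had 1 gene symbol, 8 several and 17110 none, and only the first were named. A gene of a list was represented by its brightest tested probe. Alternatives were median scaling, the deposited log2 values, normexp background correction with an offset of 50, 2 other filters, 1 probe per gene, no time factor, array weights, a variance trend and leaving out each time.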

Additional observations from a re-analysis of the deposited data

Results flagged for a closer look

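The slopes of 3 H2B genes differed between the treatments by the interaction term. Per doubling of time, the slope with BAY 1238097 minus that in DMSO was -0.58 for H2BC8, -0.41 for H2BC4 and -0.38 for H2BC6. The H2BC6 probe was above background on 0 of 4 DMSO arrays and was tested through its treated arrays, so nothing is read from its value. The call of H2BC8 was lost with array weights (adjusted p = 0.0505), that of H2BC4 with array weights or without the 12 h arrays, and that of H2BC6 with these, under median scaling (-0.20) and without the 4 h arrays (-0.24). The gap of a single array to the rest of its group did not pass Dixon's limit for any tested H2B probe.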

How the results depend on the processing

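Over 13 alternatives, 0 of 244 values of single H2B probes changed direction, 41 lost their call and 2 gained one, with H2BC6 and H2BC7 counted. Direction could not change in many of them. The 2 other filters, 1 probe per gene, no time factor and the variance trend leave the estimate itself as it was. The deposited log2 values nearly equal those of the main fit. Interactions and slopes were followed only for probes called in the main fit, so their calls could be lost but not gained. Among treatment changes only that of H2BC7 lost its call, in 3 of 12 alternatives. All other losses were of interactions and of slopes with BAY 1238097. The count of H2B probes higher with BAY 1238097 lay between 8 and 11 (10 in the main fit, H2BC6 and H2BC7 included, which were tested through their treated arrays, and 8 of 9 among probes above background on all 8 arrays), with the lowest values where fewer probes were tested. The replicate block is the time point, and without this pairing 10 H2B probes still passed, while the count over all tested probes fell from 4758 to 2172. That count was 3161 with 1 probe per gene, where fewer were tested, 7567 with array weights and 1659 to 6372 with a time left out (lowest without the 12 h arrays, 1775 without the 8 h arrays). The cause of the other shifts was not tested. Probes whose difference shrank over time were 3 in the main fit with H2BC6 counted, 0 with array weights and 1 to 5 with a time left out. Vehicle slopes passed for 0 probes, and for 0 to 1 with a time left out. Slopes with BAY 1238097 fell in 6 probes in the main fit, with H2BC6 and H2BC7 counted. Under median scaling they fell in 0 (6 at an unadjusted p under 0.05 in limma) and with array weights in 0 (7 unadjusted). With a time left out they fell in 0 to 4 (8 unadjusted without the 4 h or 8 h arrays). Normexp correction gave a log2 change of 3.39 for H2BC21 and 2.34 for H2BC8. Background subtraction without normalization, chosen after seeing the data, gave 4.42 and 3.20. It gave 3.37 for H2BC11 (2.59 in the main fit) and 3.39 for the first H2BC5 probe (3.01). For the brighter H2BC12 probe it gave 1.63, below the 1.83 of the main fit. Low signal over background limits the sizes for H2BC4, H2BC6, H2BC7, H2BC8, H2BC11 and H2BC21, and to a lesser degree for H2BC5.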
